A study of Mus musculus with 8 samples.

Results

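The DNA chip carried 2 probes of the miR-181 family, mmu-miR-181a and mmu-miR-181b (below miR-181a and miR-181b), among 200 mouse miRNA probes. They were chosen by name, with their level in each tissue and their lower signal in elderly mice already known, so both are described here without a test. The samples were elderly (14 months) and young (1 month) male ICR mice, an outbred stock, and no other treatment or allele is labelled. Small RNA from lung, liver, kidney and heart was hybridized with 1 chip per age and tissue, 8 chips in all. Whether 1 animal gave all the tissues of its age is not labelled, and there are no replicates, so the spread between mice of an age is not known. Each sample was whole tissue, in which fewer cells of a type and less RNA per cell cannot be told apart.

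A miRNA is loaded onto an Argonaute protein and represses mRNAs that pair with its seed, a short stretch near its 5′ end. The miR-181 family is known from blood cell development, where miR-181a sets the sensitivity of the T cell receptor in developing thymocytes and favours the B cell lineage. In endothelial cells, miR-181b is known to dampen NF-κB signalling through an importin. The sequences below show what the family shares, with the seed (bases 2 to 8) in capitals. They come from RefSeq on GRCm38.p6, and both probes of the family and the probe of the opposite arm were matched to it by name.
miR-181a: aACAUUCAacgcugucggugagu
miR-181b: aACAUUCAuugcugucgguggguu
miR-181c: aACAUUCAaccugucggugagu
miR-181d: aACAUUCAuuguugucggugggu
miR-181a*: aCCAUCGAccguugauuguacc
The 4 members have 1 seed, and no other mature miRNA of the 1679 in the RefSeq table has it. Counted from the 5′ end, miR-181a and miR-181b differ by A9U, C10U and A21G over 23 bases, and miR-181b has 1 further base at its 3′ end. miR-181d differs from miR-181b by C12U. None of the 200 probes was named miR-181c or miR-181d, and whether these bind the 2 probes was not tested. miR-181a*, also called miR-213, is the opposite arm of the Mir181a-1 hairpin, has another seed and has a probe of its own.

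Each of the 2 probes reads a miRNA made from 2 genes. Mir181a-1 (chr1:137966455-137966541, plus strand) is followed by Mir181b-1 (chr1:137966639-137966718, plus strand). Mir181a-2 (chr2:38852735-38852810, plus strand) is followed by Mir181b-2 (chr2:38853830-38853918, plus strand), and both lie within the genes Nr6a1 and Nr6a1os. The signals therefore do not tell the chromosome 1 pair from the chromosome 2 pair. Mir181c and Mir181d are neighbours on chromosome 8, between Nanos3 and Mir23a.

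Signals are given in chip units after subtraction of the background of each chip, which was between 20.2 and 24.004 units. A signal of at least 10 units was taken as detected. That was the case for 88 to 110 probes on the lung, kidney and heart chips, but for 57 on the elderly and 53 on the young liver chip. The 75 probes below this limit on all 8 chips reached up to 9.80 units, a maximum that the limit itself bounds. Their median signal was between 1.10 units (elderly heart chip) and 1.89 units (young heart chip). The liver and heart labels were checked with tissue markers. The hepatocyte miRNA miR-122a gave 1973 units in elderly and 1193 units in young liver, and at most 5.72 units on any other chip. The muscle miRNA miR-1 gave 2503 units in elderly and 3325 units in young heart, and at most 48.2 units elsewhere. The kidney marker miR-204 was not detected on any chip, at 1.25 units in elderly and 2.75 units in young kidney, while miR-194 gave 249 and 193 units there.

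miR-181a was detected at both ages in lung, kidney and heart. In lung, its signal was 157 units in the elderly sample and 266 units in the young one. In kidney, it was 31.0 units in the elderly and 60.2 units in the young sample. In heart, it was 55.9 units in the elderly and 96.1 units in the young sample. The elderly chip was the lower one in each of these tissues. In liver, the signals were 4.86 units in the elderly and 5.84 units in the young sample, both below the detection limit, so that no fold is given.

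miR-181b gave 43.4 units in elderly and 64.4 units in young lung. In heart, it gave 19.1 units in the elderly and 23.6 units in the young sample. In kidney, it was detected only in the young sample, at 23.9 units, against 8.89 units in the elderly sample, and in liver it gave 4.32 units in the elderly and 10.98 units in the young sample. All 4 elderly signals were again the lower ones, but 2 of them lay below the detection limit and the young liver signal lay just above it.

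miR-181a* was below the limit on all 8 chips. Its signal was 4.89, 5.02, 4.11 and 2.38 units in elderly lung, liver, kidney and heart, and 5.34, 3.46, 5.14 and 3.04 units in the young tissues. The arm that is opposite to miR-181a in the Mir181a-1 hairpin thus gave no value that could be compared between the ages.

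**Figure D1:**
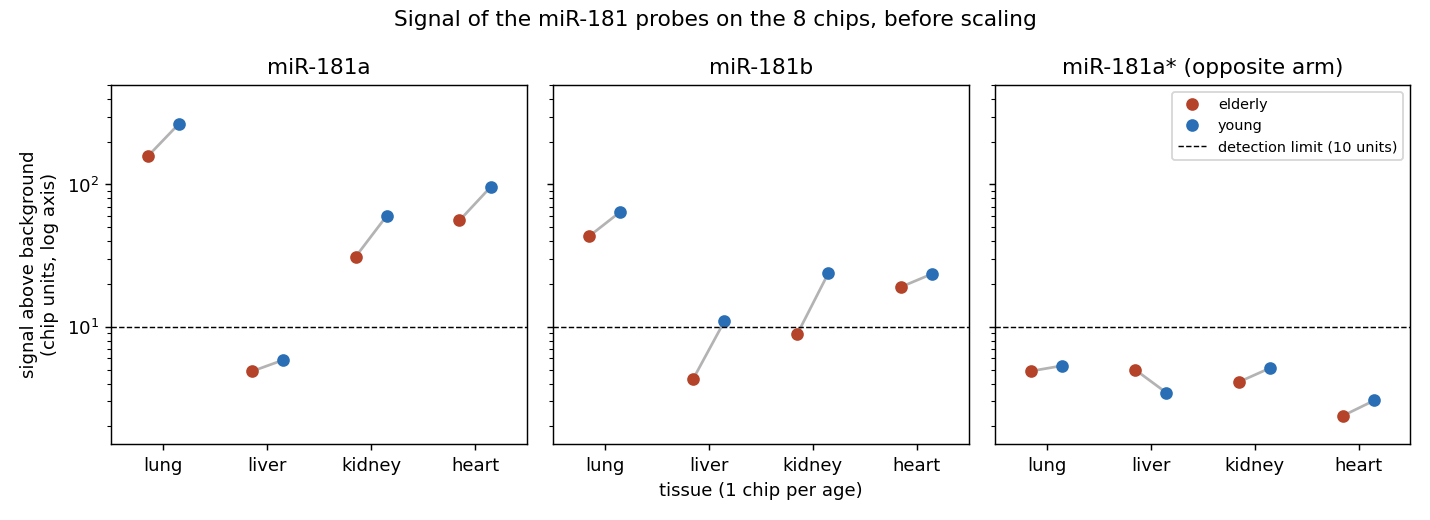
Signal above background (chip units, log axis) of the miR-181a, miR-181b and miR-181a* probes in 4 tissues, with 1 point per chip, the elderly sample left of the young one, grey lines joining the chips of a tissue, and a dashed line at the limit of 10 units. Lung is the brightest tissue for miR-181a and miR-181b, the liver points are close to or below the limit, and all miR-181a* points lie below it.

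To compare the ages, the 8 chips were quantile-scaled, values under 10 units were raised to 10, and log2 of the elderly over the young signal was taken. In lung, miR-181a reached 0.383-fold of the young sample (log2 -1.38) and miR-181b 0.605-fold (log2 -0.72). In kidney, miR-181a reached 0.440-fold (log2 -1.18) and miR-181b 0.395-fold (log2 -1.34), the value of miR-181b resting on an elderly signal below the limit before scaling. In heart, the changes were smaller, at 0.811-fold (log2 -0.30) for miR-181a and 0.922-fold (log2 -0.12) for miR-181b. In liver, scaling raised signals near the background to 19.6 units in the elderly and 62.6 units in the young sample for miR-181b (log2 -1.67), and to 23.1 and 25.6 units for miR-181a (log2 -0.15), so no liver fold of miR-181a is read and that of miR-181b rests on signals at the limit. The mean log2 change over lung, kidney and heart was -0.96 ± 0.57 for miR-181a and -0.73 ± 0.61 for miR-181b (SD, n = 3 tissues). With the liver values included, which rest on signals at or below the limit, it was -0.75 ± 0.62 for miR-181a and -0.96 ± 0.69 for miR-181b (SD, n = 4 tissues).

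The study's thresholds for a marked difference were a fold change above 1.5 or below 0.5. The study used them for klotho-deficient against wild-type mice, in an experiment repeated with different animals. Here they were applied to the ages, on quantile-scaled signals and without replicates. In kidney, 2 of 2 probes were below 0.5-fold, where 2.08% of 96 counted miRNAs were, and these were the same 2 miRNAs. In lung, 1 of 2 probes was, miR-181a, against 6.32% of 95 miRNAs. In liver, 1 of 2 was, miR-181b, against 12.6% of 103 miRNAs, and in heart neither was, against 2.06% of 97. Below 1/1.5-fold were 2 of 2 probes in lung (14.7% of all), 2 of 2 in kidney (13.5%), 1 of 2 in liver (29.1%) and 0 of 2 in heart (12.4%). Above 1.5-fold were 0 of 2 probes in each tissue, against 11.6% of all counted miRNAs in lung, 23.3% in liver, 11.5% in kidney and 11.3% in heart. Since the age difference was known when the probes were chosen, these shares place them among the miRNAs and test nothing. They also depend on the scaling. Without it, and with values under 10 units raised to 10, miR-181a was below 0.5-fold in no tissue (log2 -0.76 in lung and -0.96 in kidney). miR-181b was then below 0.5-fold only in kidney, at log2 -1.26 or lower.

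In lung, miR-181a ranked 2 and miR-181b ranked 10 from the lowest fold of 95. In kidney, miR-181a ranked 2 from the lowest of 96, and miR-181b, whose elderly signal of 8.89 units was below the limit, ranked 1. In heart, they were inside the bulk, with miR-181a at rank 26 and miR-181b at rank 47 of 97, and the median log2 change of all counted heart miRNAs was -0.10. Of 84 miRNAs counted in both lung and kidney, 5 were below 1/1.5-fold in both, namely miR-181a, miR-181b, let-7e, let-7i and miR-301, named after their values were seen. Of these 84, miR-181a alone was below 0.5-fold in both after scaling. Before scaling, it was below 0.5-fold in neither (log2 -0.76 in lung and -0.96 in kidney). Its lower signal in these tissues was known when it was chosen, so this is a description only. Of 72 miRNAs detected on all 6 lung, kidney and heart chips before scaling, 20 (27.8%) were lower in the elderly sample of all 3 tissues, miR-181a among them.

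**Figure D2:**
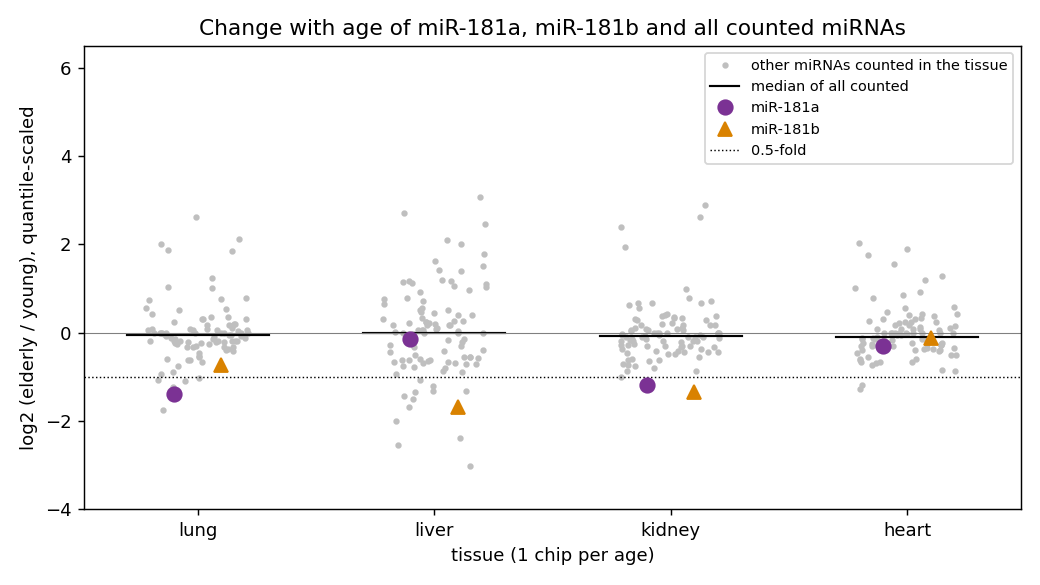
Log2 of the elderly over the young quantile-scaled signal in each tissue for miR-181a (circles), miR-181b (triangles) and the other counted miRNAs (grey points), with the median of all counted miRNAs as a bar and 0.5-fold as a dotted line. The pair lies at the lower edge in kidney, near the lower end for miR-181a in lung, and inside the bulk in heart.

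The change of miR-181a in lung moved by over 1.5-fold when scaling was left out. Its direction in lung, kidney and heart did not change under any of the 10 alternatives. The limits of 5 and 30 units could not change it, since its scaled signals in these tissues were at least 32.2 units. Before scaling, the median log2 change of the miRNAs detected on either chip was 0.19 in lung, 0.82 in liver, 0.097 in kidney and -0.43 in heart. On that unscaled basis, miR-181a was at log2 -0.76 in lung, -0.96 in kidney and -0.78 in heart, which is no longer below 0.5-fold anywhere. The unscaled heart value of -0.78 thus stands beside a median of -0.43. For miR-181b, the unscaled log2 values were -0.57 in lung, -0.31 in heart and -1.26 or lower in kidney, where the elderly signal only gives a bound. The heart change of miR-181b was 0.04 when chips were scaled to their median and 0.11 when scaled to their 75th percentile, so it had no settled direction.

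miR-181a in lung was below 0.5-fold in 7 of the 10 alternatives, the others being no scaling (log2 -0.76), the second deposited table, also unscaled (-0.76), and normexp background correction (-0.98). In kidney, it was below 0.5-fold in 6 of 10, the others being no scaling (-0.96), the second table, also unscaled (-0.95), no background subtraction (-0.81) and normexp (-0.58). miR-181b in kidney was below 0.5-fold in 6 of 10, and at log2 -0.97 with median scaling, -0.59 without background subtraction, -0.34 with normexp and 0 with a limit of 30 units, which lies above both kidney signals. miR-181b in lung was lower in the elderly sample in all 10 alternatives, and below 0.5-fold in 1 of them, median scaling (-1.10). These counts include settings that could not differ from the main one. The limits of 5 and 30 units left miR-181a as it was, since its scaled lung and kidney signals lay above 30 units. The limit of 5 units likewise left miR-181b as it was in both tissues. Quantile scaling without the liver chips gave nearly the main values for miR-181a, at -1.40 in lung and -1.18 in kidney.

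**Figure D3:**
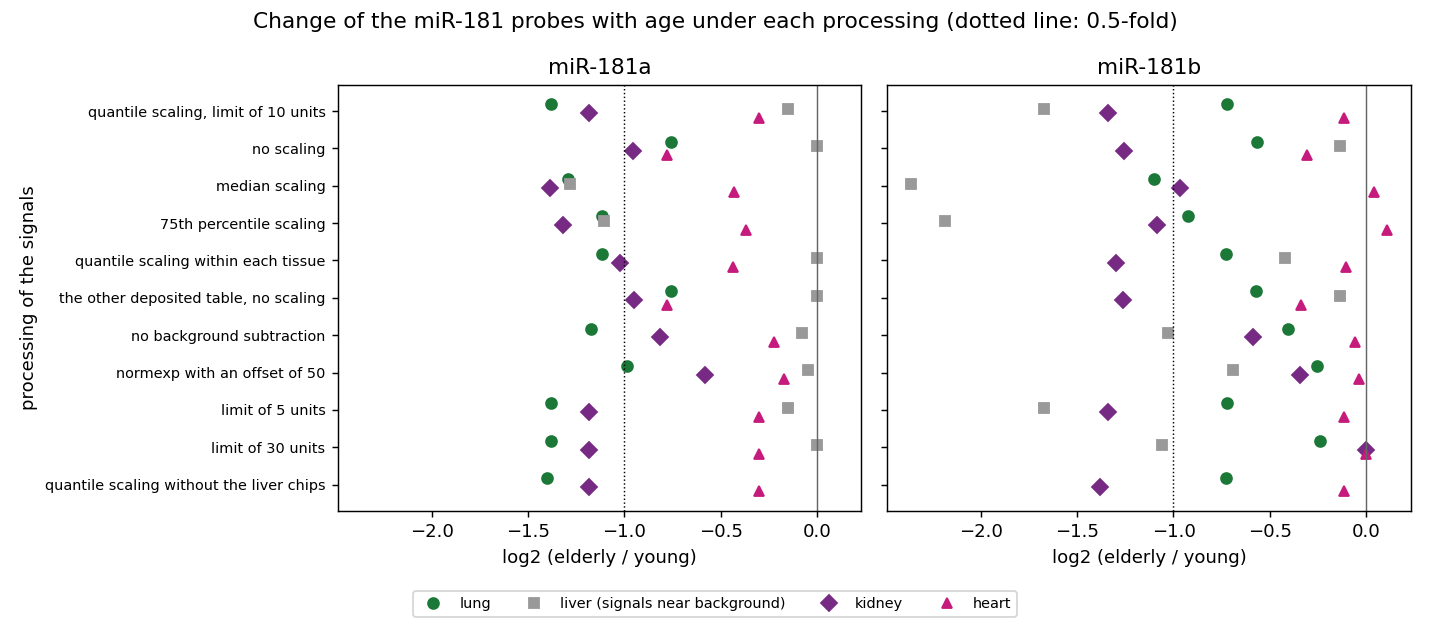
Log2 of the elderly over the young signal of miR-181a (left) and miR-181b (right) under each processing of the signals, with symbols for the tissues, a line at 0 and a dotted line at 0.5-fold. The lung and kidney symbols of miR-181a stay left of 0 in every row, between -1.40 and -0.58, while the heart symbols of miR-181b lie on both sides of 0.

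The changes of the 2 members were not of one size. The log2 change of miR-181b minus that of miR-181a was 0.66 in lung, -0.16 in kidney and 0.19 in heart after scaling, and 0.19 in lung, -0.30 or lower in kidney and 0.48 in heart before it. The larger change was thus that of miR-181a in lung and heart. In kidney it was that of miR-181b in these settings, but that of miR-181a with median scaling (log2 -1.39 against -0.97 for miR-181b), 75th percentile scaling, no background subtraction, normexp and a limit of 30 units, so its order had no settled direction. With 1 chip per age, this difference between the members was not tested.

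Each probe was also compared with itself between tissues. Before scaling, miR-181a was highest in lung, then heart, kidney and liver at both ages. Its lung signal was 2.81 times the heart signal in elderly and 2.77 times in young mice, and its heart signal was 1.80 times the kidney signal in elderly and 1.60 times in young mice. The step between neighbours in that order is not clear of the age difference for heart and kidney, since the elderly heart signal of 55.9 units lay below the young kidney signal of 60.2 units. The elderly lung signal of 157 units lay above both heart signals. For miR-181b, the lung signal was 2.27 times the heart signal in elderly and 2.72 times in young mice. The young heart signal was 0.988 times the young kidney signal, and elderly kidney and liver lay below the limit and have no order.

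Scaling changed these orders. With quantile scaling, the miR-181a heart signal was 1.81 times the kidney signal in elderly mice and 0.981 times in young mice, so that the order of these tissues at 1 month was lost. For miR-181b, the scaled liver value exceeded the scaled kidney value, with kidney minus liver at log2 -1.05 as the mean of the ages. Without scaling, elderly kidney and liver give no order, and the young kidney signal was 2.18 times the young liver signal. The liver chips were the dimmest before scaling, with summed signals of 5469 units in elderly and 3308 units in young mice, against 13489 to 36449 units on the other chips. Lung stayed above kidney for both probes and both ages with and without quantile scaling.

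How alike the patterns of the 2 probes were depended on the liver chips and on scaling. Pearson's r of the log2 scaled signals was 0.15 over the 8 chips, which placed miR-181b at rank 37 of 76 miRNAs by likeness to miR-181a, and 0.91 over the 6 chips of lung, kidney and heart. Scaled miR-181b was highest on the young liver chip, at 62.6 units, and without scaling r was 0.93 over all 8 chips. These chips share the scaling and come in pairs of a tissue, so r is a description.

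Among 76 miRNAs detected after scaling on at least 6 chips, the most like miR-181a were let-7i (r = 0.97), miR-195 (0.92), miR-99b (0.88), miR-23b (0.87) and miR-497 (0.86), each over 8 chips. With 75th percentile scaling, r was 0.78 for miR-195, 0.48 for miR-99b and 0.61 for miR-23b. let-7i, a member of the let-7 family of differentiation-linked miRNAs, gave 474, 20.3, 118 and 184 units in elderly lung, liver, kidney and heart, and 664, 11.6, 155.4 and 293 units in the young tissues. Its scaled log2 change was -0.63 in lung, -0.61 in kidney and -0.34 in heart, but 0.17 in liver. miR-195, of the miR-15 and miR-16 seed family that is known to restrain the cell cycle, was at -0.41 in lung, -0.37 in kidney and -0.25 in heart. Before scaling, miR-195 was at -0.15 in lung, -0.010 in kidney and -0.52 in heart. miR-23b was at -0.18 in lung and 0.25 in heart after scaling, but at 0.15 and -0.30 before it. Its direction in these tissues thus depended on scaling. With or without scaling, a like pattern over tissues did not come with a like change with age in each case. miR-497, whose gene lies close to that of miR-195, was at -1.10 in lung but at 0.17 in kidney. The miRNA most like miR-181b, named after its values were seen, was miR-130b (r = 0.87), at log2 -0.88 in lung, -0.55 in kidney and -0.67 in heart.

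**Figure D4:**
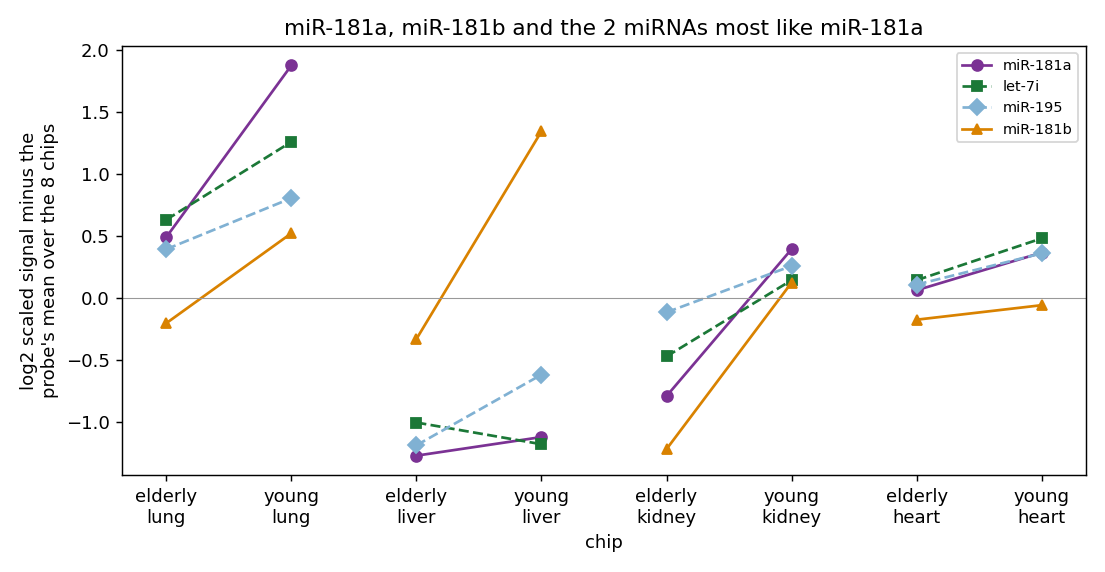
Log2 quantile-scaled signal of miR-181a, miR-181b, let-7i and miR-195 on each of the 8 chips, minus the mean of that probe over the chips, with the elderly chip left of the young chip of its tissue and lines joining each pair. let-7i and miR-195 follow miR-181a across tissues, while miR-181b stands apart on the young liver chip.

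Markers of other cell types are set beside these values, for lung, kidney and heart, and for liver at the end of the lists. Of 7 blood cell miRNAs, 6 were on the chip. In lung, 5 were counted, of which miR-142-3p, found in most blood cells, was above 1.5-fold at 164 units in elderly and 95.1 units in young lung. Below 0.5-fold after scaling there were 2, miR-146 (0.495-fold) and miR-146b (0.478-fold), the first of them known to be induced by NF-κB in immune cells. Before scaling, neither was below 0.5-fold. miR-146 gave 127.8 units in elderly and 178 units in young lung (0.719-fold), and miR-146b gave 102 and 139 units (0.735-fold). Of all counted lung miRNAs, 6.32% were below 0.5-fold and 11.6% above 1.5-fold after scaling. The summed unscaled signal of the list was 502 units in elderly and 487 units in young lung, 87.8 and 59.5 units in kidney, and 147.8 and 133.1 units in heart. In kidney and in heart, 0 members were below 0.5-fold after scaling (2.08% of all counted miRNAs in kidney and 2.06% in heart). In each, 2 were above 1.5-fold (11.5% and 11.3%), among them miR-142-3p, at 20.3 units in elderly and 10.97 units in young kidney. Before scaling, miR-142-3p was at 1.85-fold in kidney but at 1.34-fold in heart. Neither of the 2 heart miRNAs was above 1.5-fold before scaling. The median log2 change of the list was 0.30 in lung, 0.49 in kidney and 0.43 in heart. The summed signal of all probes was 36449 units in elderly and 30313 units in young lung, 15709 and 13489 units in kidney, and 20829 and 27894 units in heart. The part of blood cells in the miR-181 values was not tested.

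Endothelial miR-126-3p gave 3259 units in elderly and 2734 units in young lung, 401 and 336 units in kidney, and 730 and 1022 units in heart. Of the 2 endothelial miRNAs, none was past either threshold in these tissues. The scaled log2 change of miR-126-3p was 0 in lung and in heart, since quantile scaling gives equal values to equal ranks. Before scaling, it was at 1.19-fold in lung and 0.714-fold in heart. After scaling, the smooth muscle and fibroblast miRNAs (3 of 4 on the chip) had 0 below 0.5-fold. In heart, 2 of the 3 counted, miR-143 (0.661-fold) and miR-145 (0.647-fold), were below 1/1.5-fold, against 12.4% of all counted miRNAs. Before scaling, miR-143 gave 430 units in elderly and 885 units in young heart (0.485-fold), and miR-145 gave 291 and 541 units (0.539-fold). The epithelial miRNAs (4 of 5 on the chip, among them miR-200a, miR-200b and miR-141) were within the thresholds in lung and kidney, with sums of 668 units in elderly and 495 units in young lung and of 406 and 431 units in kidney. Of the muscle miRNAs (5 of 6 on the chip), the 4 counted in heart and the 4 counted in lung were within the thresholds, as were the 2 counted kidney miRNAs (3 of 4 on the chip) in kidney. In heart, miR-1, miR-133a and miR-133b also had a scaled log2 change of 0, through equal ranks on both chips. Before scaling, they were at 0.753-fold, 0.726-fold and 0.631-fold there. The neuronal miRNAs (5 of 6 on the chip) were below the limit in lung. In kidney, miR-124a gave 50.9 units in the elderly and 3.12 units in the young sample. In heart, miR-128a gave 14.8 and 11.1 units. Both miRNAs were above 1.5-fold after scaling, against 11.5% of all counted miRNAs in kidney and 11.3% in heart. The other neuronal miRNAs reached at most 3.72 units in kidney and 3.86 units in heart. Each call thus rests on 1 probe of the list. The 1 hepatocyte miRNA was not detected outside liver. In liver, where miR-181b was detected on the young chip, the 2 counted epithelial miRNAs were below 0.5-fold after scaling, from signals below the limit on both chips. These were miR-200a, at 4.21 units in elderly and 9.20 units in young liver, and miR-200b, at 3.17 and 8.37 units. The blood cell list summed to 22.3 units in elderly and 20.6 units in young liver. In these lists, neuronal miR-9 was also below 0.5-fold in liver after scaling (0.399-fold). Above 1.5-fold were blood cell miR-142-3p (2.26-fold), smooth muscle and fibroblast miR-199a (2.09-fold) and neuronal miR-124a (2.15-fold). These values, too, came from signals below the limit on both chips. Of all counted liver miRNAs, 12.6% were below 0.5-fold and 23.3% above 1.5-fold.

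Of 5 inflammation feedback miRNAs, which act on NF-κB and cytokine signalling, 3 were counted in each tissue. After scaling, miR-146 in lung was the only one below 0.5-fold, against 6.32% of all counted lung miRNAs. miR-21 was above 1.5-fold in kidney, at 285 units in the elderly and 188 units in the young sample. In liver, miR-125b was above 1.5-fold, at 19.0 units in the elderly and 7.02 units in the young sample. Above 1.5-fold were 11.5% of all counted miRNAs in kidney and 23.3% in liver. The chromosome 8 neighbours of Mir181c and Mir181d are the genes of miR-23a, miR-27a and miR-24, the last also made from another gene. All 3 were within the thresholds in lung, kidney and heart, with miR-27a at 1390 units in elderly and 1288 units in young lung. Their median log2 change was 0 in lung, -0.18 in kidney and 0.18 in heart, beside medians over all counted miRNAs of -0.059, -0.080 and -0.10.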

How the data were processed

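Small RNA from 8 tissue samples was labelled with a fluorescent dye and hybridized to Genopal-MICM DNA chips, read in 1 colour. The authors deposited 2 tables of signal intensity, one without background subtraction and one that lies lower by 1 constant per chip, with low values set to a floor of 1 to 5 units. The scanner software, the spot summary and the background method are not stated in the labels or the study's methods. The constant was taken as the middle of the differences between the tables and subtracted from the first table. The chips were then quantile-scaled, those under 10 units were raised to 10 and put on a log2 scale (Python version 3.11.15, pandas version 2.3.3). A miRNA was counted in a tissue when it had at least 10 units after scaling on at least 1 of its chips. The steps were tested on simulated chips, all built from the mean profile of young lung, kidney and heart. None was as dim as the liver chips, and changes were put only into bright probes. Scaling of dim chips and of signals near the limit was therefore not tested. No test was made, since each age and tissue has 1 chip and the number of chips limits the precision.

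The 2 members, the 10 marker lists and the alternatives were chosen with earlier results of these data known. Named are the members, the opposite arm, the 5 miRNAs most like miR-181a by r and up to 3 of the brightest members of each list. Alternatives were no scaling, scaling to the median or to the 75th percentile (of 46 miRNAs detected on all chips), quantile scaling within tissues, the second table without scaling, no background subtraction, normexp with an offset of 50 (limma version 3.58.1, R version 4.3.3), limits of 5 and 30 units, other fold thresholds, another filter, Spearman's rho and leaving out a tissue. Quantile scaling without the liver chips was added after seeing the data.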

Additional observations from a re-analysis of the deposited data

How the results depend on the processing

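No paired analysis was possible because each age and tissue has 1 chip, so no replicate numbers pair samples and no test was made; ages were compared within each tissue. A log2 value is said to have moved when it changed by over 1.5-fold, and a count by over 1.5 times; the cause was not tested. Signal over background limits the liver values and the elderly kidney value of miR-181b. Leaving out 1 tissue gave mean log2 changes between -0.96 and -0.55 for miR-181a and between -1.25 and -0.73 for miR-181b. The values of -0.96 and -0.73 are those without liver. The values of -0.55 (without lung) and -1.25 (without heart) include liver, whose signals were at or below the limit.

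Without scaling, log2 changes moved to -0.76 for miR-181a in lung and -0.13 or lower for miR-181b in liver, and levels to 2.11 or higher (miR-181a, kidney minus liver) and 1.31 (miR-181b, lung minus heart), while miR-181b kidney minus liver reversed to 0.56, of which the elderly part is set to 0 by the limit. The second table, also unscaled, gave -0.76, -0.14, 2.11, 1.30 and 0.56 for the same values, with the same bounds. Median scaling gave -1.28 for miR-181a and -2.36 for miR-181b in liver, and 0.26 for miR-181a kidney minus liver, and 75th percentile scaling gave -1.11 for miR-181a in liver and 0.069 for that level. Scaling within tissues gave -0.42 for miR-181b in liver. Without background subtraction, miR-181b was at -1.03 in liver and -0.59 in kidney. With normexp, miR-181a was at -0.58 in kidney. miR-181b was then at -0.69 in liver, -0.34 in kidney and -0.33 as the mean of the 4 tissues, liver included. Its kidney minus liver was then at -0.37. A limit of 30 units gave miR-181b -1.06 in liver, 0 in kidney and -0.33 as the same mean. Its r with miR-181a reversed to -0.24.

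Counts of all miRNAs below 0.5-fold moved to 1 in lung, 0 in liver, 1 in kidney and 7 in heart without scaling, and to 1, 0, 1 and 8 with the second table, also unscaled. They moved to 37 in liver, 1 in kidney and 0 in heart with median scaling, 3 in lung, 38 in liver and 0 in heart with 75th percentile scaling, and 2 in liver with scaling within tissues. They moved to 1 in lung, 0 in kidney and 0 in heart without background subtraction, and 0 in lung, 3 in liver, 0 in kidney and 0 in heart with normexp. A limit of 5 units gave 4 in kidney and 5 in heart, a limit of 30 units 7 in liver, 1 in kidney and 0 in heart, detection on both chips before scaling 5 in liver, 1 in kidney and 1 in heart, and a threshold of 1/1.5 14 in lung, 30 in liver, 13 in kidney and 12 in heart. Counts above 1.5-fold moved to 40 in liver and 6 in heart without scaling, from either table, 8 in liver and 4 in kidney with median scaling, 7 in lung, 9 in liver and 4 in kidney with 75th percentile scaling, and 8 in liver and 7 in kidney within tissues. They moved to 5 in kidney and 6 in heart without background subtraction, 5 in lung, 7 in liver, 5 in kidney and 5 in heart with normexp, 13 in liver and 6 in heart with a limit of 30 units, 6 in liver with detection on both chips, and 4 in kidney and 7 in heart above 2-fold.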
